A study of Mus musculus with 14 samples.

Results

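The data are RNA profiles of intestinal stem cells that express Lgr5, taken from mice in which the muscarinic receptor gene Chrm3 was left intact, with or without a procedure that the labels abbreviate ES and do not expand. The series title concerns chronic stress and the ageing of these cells. The comparison holds 4 of the 14 libraries of the series, 2 named WT NT and 2 named WT ES, and covers every gene that passed a filter on low counts, 17364 of the 55335 genes in the table. All 4 libraries came from Lgr5CreERT2-IRES-GFP; Chrm3flox/flox mice, and both groups received vehicle in place of tamoxifen (TAM) for 3 days, which in the ES group came before the ES modelling, so the floxed gene and the Lgr5 reporter and Cre allele are shared by both groups. WT therefore means vehicle-treated, not free of the alleles. Cells were sorted for EGFP, which this allele drives from the Lgr5 locus, and no age is stated for these mice. Other libraries are used only beside these: 4 from mice of the same genotype injected with TAM, which activates the Cre and is meant to delete Chrm3 in Lgr5 cells, named KO, with NT or ES (n = 2 each), and 6 from Lgr5CreERT2-IRES-GFP mice of 2 months (young) or 18 months (old), n = 3 each. The labels do not say that libraries of a group came from separate animals, so each p-value reflects how much libraries vary, which may be technical.

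Lgr5 cells sit at the base of the intestinal crypt, divide throughout life and give rise to absorptive enterocytes and to the secretory goblet, Paneth, enteroendocrine and tuft cells. Wnt signals and the transcription factor Ascl2 maintain their identity, Notch signals keep them from secretory fates, and daughters that escape Notch turn on secretory factors such as Atoh1 and Spdef. Acetylcholine from nerves and tuft cells reaches the epithelium through muscarinic receptors, and stress hormones reach it through the glucocorticoid receptor Nr3c1.

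Total counts were 31465297 and 29531151 in WT NT and 30592415 and 26683563 in WT ES, and mitochondrial genes took between 6.42% and 6.94% of them. Markers of stem cells and of secretory cells were both abundant. The summed level of Lgr5, Ascl2, Olfm4, Smoc2 and Axin2 was 11097 and 11318 CPM (counts scaled to the size of the library) in NT and 8977 and 8617 CPM in ES. Goblet markers summed to 4653 and 4522 CPM in NT and 9546 and 9329.6 CPM in ES, and Paneth markers to 7411 and 7372 CPM in NT and 9205 and 8750.4 CPM in ES. The stem cell sum was thus the highest of these in both NT libraries and the lowest in both ES libraries. Olfm4 alone was at 10219.5 and 10430.0 CPM in NT and Fcgbp at 3398 and 3290 CPM. The rank therefore depends on the genes summed and does not measure the share of each cell type. T cell markers summed to between 34.6 and 38.4 CPM and mesenchymal markers to at most 0.112 CPM, and the endothelial genes Cdh5, Kdr and Emcn had no counts. Chrm3 itself had 355 and 386 counts in NT and 357 and 291 in ES, with a log2 fold change of -0.10 ± 0.16 (standard error, adjusted p = 0.814). Both groups expressed it, and the libraries overlapped.

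In WT, 605 of the 17364 tested genes (3.48%) differed between ES and NT with an adjusted p under 0.05 in edgeR's quasi-likelihood test. Of these, 364 rose (2.1%) and 241 fell (1.39%). Most changes were small: the median fold was 1.46 among the genes that rose and 1.34 among those that fell, and 86 changed at least 2-fold, 70 up and 16 down. In all 605 the NT and ES libraries did not overlap, but that is also true of 52.8% of all tested genes. The share that passed grew with the level of the gene, from 0.192% of genes under 1 CPM and 1.69% between 1 and 10 CPM to 5.24% between 10 and 100 CPM and 6.22% at 100 CPM or more. Genes that fell had longer exonic sequence, with a median of 5024 bases against 3721 in genes that rose and 3567 in all tested genes.

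**Figure D1:**
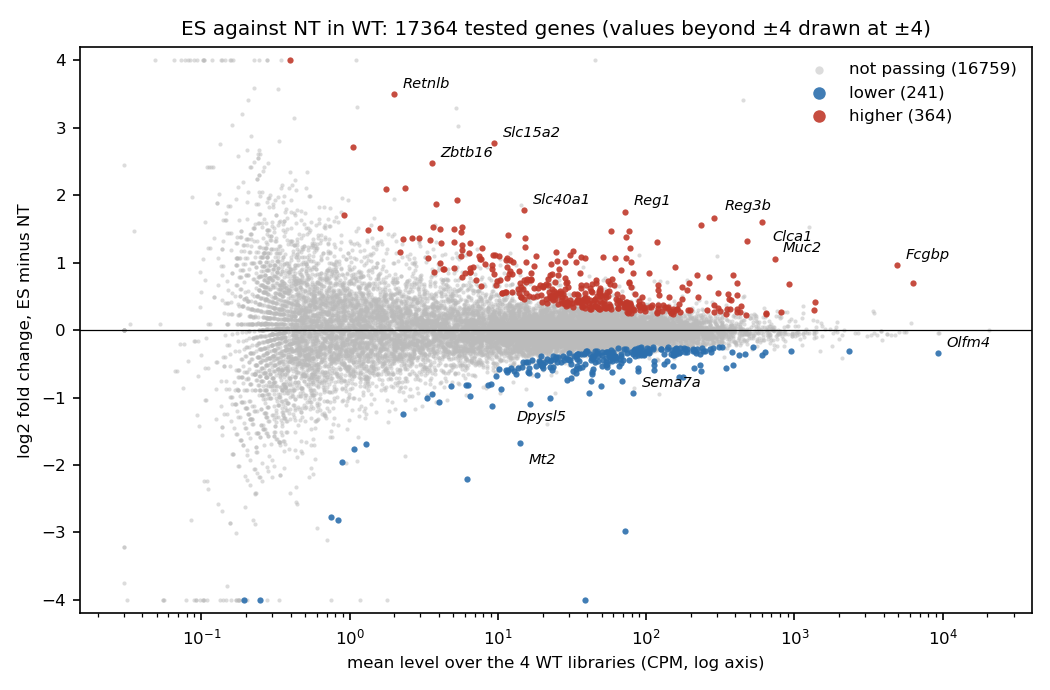
Each point is 1 of the 17364 tested genes, with its mean level over the 4 WT libraries in CPM on a log axis and its log2 fold change, ES minus NT, on the vertical axis. Red points (364) rose and blue points (241) fell, and the rises reach farther from 0 than the falls at levels above 100 CPM.

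The number of genes that passed rested on every WT library. It was 41 without NT replicate 1 (0.223% of the genes then tested), 23 without NT replicate 2 (0.125%), 102 without ES replicate 1 (0.555%) and 154 without ES replicate 2 (0.841%), where the lone library of a group is assumed to vary like the others. It was 1178 and 1209 without KO NT replicate 1 or 2, which only contribute to the shared estimate of the spread. Fitted on the 4 WT libraries alone, 1875 genes passed (11.4%). With all 8 libraries DESeq2 called 926 of the 12944 genes for which it gave an adjusted p (7.15%), and limma-voom called 528 (3.04%). Each of the 605 genes kept its direction in all 8 of these leave-outs. Their NT and ES libraries did not overlap, which largely fixed that outcome in advance. Among the named genes the 13 that passed in every leave-out were Reg1, Clca1, Muc2, Fcgbp, Agr2, Lypd8, Mmp7, Slc9a3, Xdh, Dpysl5, Sox4, Scn2b and Mt1.

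Genes of stem cell identity were lower after ES. Of 32 tested members of that list, 19 fell, none rose and 13 did not pass, with a median log2 fold change of -0.33 against -0.00 over all tested genes; 29 of the 32 lay below 0. Lgr5, the R-spondin receptor whose locus drives the sorting marker (ENSMUSG00000020140, GRCm38 chromosome 10, 115450311 to 115587780), was at 129 and 133 CPM in NT and 99.1 and 90.8 CPM in ES (-0.46 ± 0.08, adjusted p = 0.0152). Ascl2 stood at 36.0 and 37.2 CPM in NT and 22.1 and 21.9 CPM in ES (-0.74 ± 0.10, adjusted p = 0.00685). For both genes the ES libraries lay below both NT libraries, as in every gene that fell. Sox4, a transcription factor of progenitor cells, had 252 CPM in both NT libraries and 170.4 and 172 CPM in ES (-0.56 ± 0.05, adjusted p = 0.00079). Scn2b, a sodium channel subunit, fell from 88.9 and 84.8 CPM to 50.0 and 53.4 CPM (-0.75 ± 0.08, adjusted p = 0.00181). The 2 libraries of each group were close to each other in these genes, and the gap between groups was several times the gap within them. Sox4 and Scn2b were named for their low p-values, which select for this pattern, so it is no separate support. Olfm4, an abundant secreted glycoprotein of these cells, had a log2 fold change of -0.34 ± 0.07 and went from 10219.5 and 10430.0 CPM to 8317 and 7975 CPM. Axin2, a feedback inhibitor of Wnt signalling, fell by 0.56 (SE 0.06), Cdca7 by 0.51 (SE 0.06), the RNA-binding protein Msi1 by 0.63 (SE 0.07) and the urea transporter Slc14a1 by 0.94 (SE 0.12). Without NT replicate 1 or 2, 5 and 2 members fell, and without ES replicate 1 or 2, 8 and 7 did.

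In each of the lists of pathways around stem cell identity 1 gene passed. The shares that fell were 5.26% for Wnt, 5.0% for Notch and 4.17% for BMP and TGF-beta, against 1.39% of all tested genes. The Wnt list leaves out Lgr5 and Axin2, which are described above. Of 19 tested Wnt ligands, receptors and feedback genes 1 fell, the receptor Fzd7, from 64.3 and 64.0 CPM to 47.8 and 40.1 CPM (-0.54 ± 0.09, adjusted p = 0.0114). Of 20 Notch pathway genes 1 fell, Hes6, a relative of the Notch effectors that marks early secretory cells (54.6 and 50.3 CPM against 39.2 and 36.6 CPM, -0.47 ± 0.09, adjusted p = 0.0219). Among 24 BMP and TGF-beta genes the target Id2 fell (-0.53 ± 0.10). Fzd7, Hes6 and Id2 were no longer called in most fits without a WT library.

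Goblet cells make the mucus that covers the epithelium, and their genes gave the widest rise. Of 31 tested goblet secretory and granule proteins, 21 rose, none fell and 10 did not pass, with a median log2 fold change of 0.80; 30 of the 31 lay above 0. Muc2, the gel-forming mucin (ENSMUSG00000025515, GRCm38 chromosome 7, 141690340 to 141754693), was at 481 and 472 CPM in NT and 1017 and 973 CPM in ES (1.06 ± 0.06, adjusted p = 3.02e-05). Fcgbp, a large mucus protein that binds Muc2, rose from 3398 and 3289.9 CPM to 6585 and 6447 CPM (0.96 ± 0.06, adjusted p = 7.17e-05). Clca1, a secreted protease of mucus, went from 301 and 300.3 CPM to 932 and 886 CPM (1.60 ± 0.09, adjusted p = 3.46e-05). In each of these genes the lowest ES library was far above the highest NT library. Fcgbp and Clca1 were named for their low p-values, which select for such a gap. Zg16, a lectin that binds bacterial walls, rose by 1.32 ± 0.13, the disulfide isomerase Agr2 by 0.82 ± 0.06 and the trefoil peptide Tff3 by 0.79 ± 0.06. Retnlb, a bactericidal goblet cell protein, was low in NT (0.408 and 0.235 CPM) and reached 4.19 and 3.18 CPM in ES (3.50 ± 0.38, adjusted p = 0.00173). Among genes that passed with a mean of at least 1 CPM, predicted genes aside, it had the largest fitted rise. Without NT replicate 1 or 2, 11 and 8 goblet genes rose, and without ES replicate 1 or 2, 17 in either case. In bulk RNA of sorted cells, more goblet cells in the sort and more RNA of these genes per cell cannot be told apart, and the same holds for the fall of stem cell genes.

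**Figure D2:**
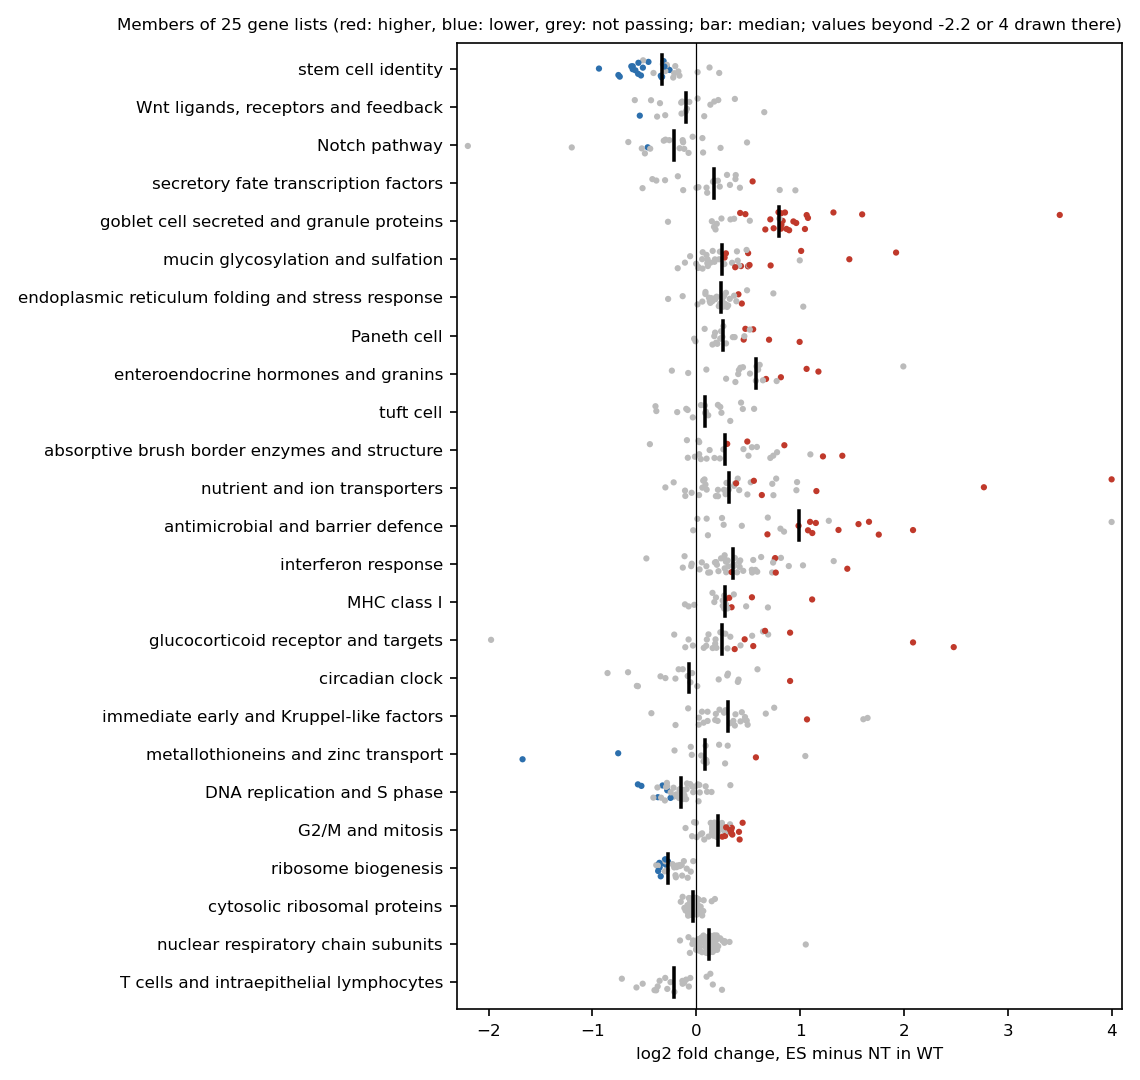
Log2 fold changes, ES minus NT in WT, of the tested members of 25 gene lists, with 1 point per gene and a black bar at the median. The goblet (median 0.80) and antimicrobial (0.98) lists lie farthest to the right, stem cell identity (-0.33) and ribosome biogenesis (-0.28) to the left, and cytosolic ribosomal proteins stay close to 0.

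The enzymes that build and sulfate mucin sugars rose in 11 of 38 tested cases and fell in none, with a median of 0.25. Papss2, which makes the sulfate donor, was at 38.7 and 42.2 CPM in NT and 96.9 and 128 CPM in ES (1.47 ± 0.25, adjusted p = 0.0124). B3galt5, a galactosyltransferase, rose from 2.39 and 1.98 CPM to 8.0 and 8.68 CPM (1.92 ± 0.30, adjusted p = 0.0106), and the sulfotransferase Chst4 from 10.8 and 9.71 CPM to 21.4 and 19.9 CPM (1.01 ± 0.14). Gcnt4, which branches the sugar core, rose by 0.50 ± 0.08. These calls were less stable than those of the mucus proteins: 1 and 2 passed without ES replicate 1 or 2, and 0 without either NT library. Of 35 endoplasmic reticulum chaperones and stress genes 33 lay above 0, but only Herpud1 (0.41 ± 0.06) and Pdia5 (0.44 ± 0.09) passed; DESeq2 called 14. Among 23 secretory fate transcription factors 1 rose, the goblet cell regulator Spdef, from 22.6 and 22.3 CPM to 33.9 and 31.3 CPM (0.54 ± 0.10, adjusted p = 0.0176). Atoh1, the factor that starts the secretory program, was at 21.3 and 19.1 CPM in NT and 26.5 and 24.1 CPM in ES and did not pass (0.32 ± 0.11, adjusted p = 0.134).

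Some genes of Paneth and enteroendocrine cells rose, and none of tuft cells passed. Of 22 Paneth cell genes 5 rose and none fell (median 0.26): Mmp7, the protease that activates defensins, went from 148 and 146 CPM to 250.4 and 229 CPM (0.70 ± 0.07, adjusted p = 0.00113), and the pentraxin Mptx2 from 301 and 306 CPM to 412 and 422 CPM (0.46 ± 0.06, adjusted p = 0.0046). The ribonuclease Ang4 rose by 0.55 ± 0.10. The most abundant Paneth genes did not pass: Lyz1, the lysozyme, was at 3134 and 2950.1 CPM in NT and 3783 and 3638 CPM in ES (adjusted p = 0.163). The alpha-defensin Defa24 differed by 0.25 ± 0.09 (adjusted p = 0.176). Of 21 enteroendocrine hormones and granins 4 rose, and the list had a median of 0.57. Gip, an incretin, went from 19.1 and 20.1 CPM to 39.1 and 49.6 CPM (1.18 ± 0.15, adjusted p = 0.00345), and Chga, a granule protein, from 17.9 and 14.5 CPM to 29.3 and 27.9 CPM (0.81 ± 0.12, adjusted p = 0.00897). Chgb rose by 0.67 ± 0.09 and the hormone Sst by 1.06 ± 0.20. None of 18 tuft cell genes passed, while 2 had an unadjusted p under 0.05, and neither DESeq2 nor limma-voom called any. The summed tuft markers were 60.3 and 58.0 CPM in NT and 64.6 and 62.4 CPM in ES.

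Absorptive genes rose in part and with more spread between the ES libraries. Of 26 brush border genes 5 rose and none fell, with a median of 0.28. Alpi, the intestinal alkaline phosphatase, went from 49.4 and 44.2 CPM to 101 and 118 CPM (1.22 ± 0.22, adjusted p = 0.0158), and Krt20, a keratin of mature enterocytes, from 56.5 and 59.8 CPM to 98.3 and 111 CPM (0.85 ± 0.18, adjusted p = 0.0358). Sis, the sucrase-isomaltase, was at 186 and 196 CPM in NT and 345 and 474 CPM in ES and missed the threshold (1.10 ± 0.27, adjusted p = 0.0506). The summed absorptive markers Alpi, Lct, Apoa4, Fabp1 and Sis were 386 and 384 CPM in NT and 636 and 847 CPM in ES. Among 35 nutrient and ion transporters 6 rose. The peptide transporter Slc15a2 went from 2.45 and 2.39 CPM to 18.7 and 14.2 CPM (2.77 ± 0.29, adjusted p = 0.00154), and the sodium-proton exchanger Slc9a3 from 14.9 and 15.7 CPM to 33.6 and 34.7 CPM (1.16 ± 0.12, adjusted p = 0.00154). Slc19a3, a thiamine transporter, had 0 counts in both NT libraries and 18 and 27 in ES. Taking 3 counts over the NT group as the limit, it was at least 16.4-fold higher. Of 22 lipid absorption genes the cholesterol transporter Npc1l1 (0.70 ± 0.13) and the lipoprotein assembly factor Mttp (0.53 ± 0.11) rose.

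Antimicrobial and barrier genes had the highest median of all lists, 0.98, with 11 of 23 tested members higher and none lower. Reg3b and Reg3g are bactericidal lectins encoded by genes of the same cluster with similar sequences, so reads of one could have been counted for the other. Reg3b was at 137 and 138 CPM in NT and 390.4 and 479.8 CPM in ES (1.66 ± 0.31, adjusted p = 0.0206), and Reg3g at 119 and 117 CPM in NT and 336 and 361 CPM in ES (1.56 ± 0.21, adjusted p = 0.0045). Both ES libraries lay above both NT libraries in either gene, as in every gene that rose. Reg1, a relative in the same cluster, rose from 32.8 and 33.0 CPM to 113 and 109.7 CPM (1.76 ± 0.16, adjusted p = 0.000589). Because Reg3b and Reg3g rose together, their start-site windows of 280 bases (250 before and 30 after the start) are shown, as RefSeq gives them for GRCm38.p6, Reg3b at chr6:78370635-78370914 on the plus strand and Reg3g at chr6:78468845-78469124 on the minus strand. Capitals mark every run of at least 10 bases that occurs in both windows.
Reg3b: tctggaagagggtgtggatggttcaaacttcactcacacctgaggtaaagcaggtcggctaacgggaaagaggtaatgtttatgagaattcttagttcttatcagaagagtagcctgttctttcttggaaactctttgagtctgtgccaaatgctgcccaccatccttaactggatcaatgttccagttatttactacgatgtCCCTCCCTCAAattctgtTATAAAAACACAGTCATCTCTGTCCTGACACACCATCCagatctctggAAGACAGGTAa
Reg3g: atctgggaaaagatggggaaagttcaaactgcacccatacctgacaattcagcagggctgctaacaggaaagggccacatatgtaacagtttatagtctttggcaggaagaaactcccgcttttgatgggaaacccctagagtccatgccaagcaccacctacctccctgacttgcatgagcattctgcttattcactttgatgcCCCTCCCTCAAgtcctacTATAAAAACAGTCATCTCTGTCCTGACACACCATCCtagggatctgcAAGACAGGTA
The shared runs cover 59 bases of the Reg3b window and 57 of the Reg3g window, and all of them lie in the part nearest the start. The letters TTCNNNGAA, the core bound by STAT factors, which read the same on both strands, occur 1 time in the Reg3b window, 129 bases before the start, and in 7.83% of 32851 such windows; they do not occur in this window of Reg3g. Such a match is a description of the sequence only.

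Other defence genes that rose included Lypd8, which keeps flagellated bacteria off the epithelium (703 and 713 CPM against 1171 and 1106 CPM, 0.69 ± 0.06, adjusted p = 0.000438), the iron-binding lipocalin Lcn2 (0.974 and 0.336 CPM against 2.57 and 3.14 CPM) and the gasdermin Gsdmc2 (7.89 and 9.17 CPM against 24.1 and 19.9 CPM, 1.37 ± 0.19), whose close copies Gsdmc3 and Gsdmc4 also passed and may share reads with it. Without NT replicate 1 or 2, 2 genes of the list rose in either case, and without ES replicate 1 or 2, 4 and 6. Of 28 genes of NF-kB and cytokine signalling 5 rose, among them Stat3 (61.1 and 53.8 CPM against 82.4 and 79.2 CPM, 0.49 ± 0.10) and the interleukin-22 receptor subunit Il22ra1 (19.1 CPM in both NT libraries against 27.9 and 25.1 CPM, 0.47 ± 0.09). Interferon response genes lay above 0 in 42 of 47 cases, with a median of 0.36, but 4 passed. The clearest was Ifit1bl1, from 2.83 and 3.19 CPM to 8.35 and 8.12 CPM (1.45 ± 0.17, adjusted p = 0.00274). Igtp (0.77 ± 0.12) and Irgm2 (0.76 ± 0.15), interferon-induced GTPases, overlap on the same strand and are not independent. Of the antigen presentation genes, 5 of 22 in class I and 2 of 11 in class II rose, and the others did not pass. B2m, the light chain of class I molecules, rose by 0.32 ± 0.06, Cd74, the class II invariant chain, by 0.52 ± 0.10 and H2-Aa by 0.35 ± 0.08. The lists of T cells (21 tested), B cells (7) and myeloid cells (8) had no passing member, with 1, 2 and 2 members at an unadjusted p under 0.05 and none called by DESeq2 or limma-voom.

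In the list of genes that respond to glucocorticoids 7 of 29 rose (24.1%, against 2.1% of all tested genes) and none fell, with a median of 0.25. Mt1 and Mt2, which glucocorticoids also induce, were kept in another list, and both fell (-0.75 ± 0.08 and -1.67 ± 0.26). Zbtb16, a transcription factor that glucocorticoids induce in many tissues (chromosome 9, 48654297 to 48836222), went from 0.785 and 1.41 CPM to 6.05 and 6.14 CPM (2.48 ± 0.36, adjusted p = 0.00749). Per1, a clock gene with a glucocorticoid response element, rose from 18.7 and 17.1 CPM to 32.5 and 34.5 CPM (0.90 ± 0.10, adjusted p = 0.00181). Tsc22d3, also known as Gilz, went from 21.0 and 20.5 CPM to 31.6 and 29.0 CPM (0.55 ± 0.09, adjusted p = 0.0124). In all 3 genes both ES libraries stood above both NT libraries. The groups did not overlap in any of the 605 genes that passed, nor in 52.8% of all tested genes. The mineralocorticoid receptor Nr3c2 rose by 0.47 ± 0.08 and the sodium channel subunit Scnn1a by 0.66 ± 0.12. Fkbp5, a common glucocorticoid target, was at 68.7 and 69.7 CPM in NT and 77.3 and 91.0 CPM in ES and did not pass (0.28 ± 0.08, adjusted p = 0.102), and the receptor Nr3c1 differed by -0.03 ± 0.06 (adjusted p = 0.83). Without NT replicate 1 or 2, 1 and 0 members of the list rose, and without ES replicate 1 or 2, 2 and 3. Per1 was the one of 20 clock genes that passed; no source used here gives the time of day of collection.

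Few members of general stress programs passed, but few genes passed at all: 2.1% of all tested genes rose and 1.39% fell. The shares that rose were 3.33% of immediate early and Kruppel-like factors, 5.0% of heat shock chaperones and 3.45% of antioxidant genes. Immediate early and Kruppel-like factors lay above 0 in 27 of 30 cases, with a median of 0.30. There 11 had an unadjusted p under 0.05, and DESeq2 called 5. Of 30 immediate early and Kruppel-like factors Klf10, a TGF-beta-induced repressor, rose, from 40.3 and 39.8 CPM to 82.7 and 85.2 CPM (1.07 ± 0.12, adjusted p = 0.00193); Fos was at 371 and 381 CPM in NT and 515 and 544 CPM in ES (0.49 ± 0.13, adjusted p = 0.0733). Of 20 heat shock chaperones Hsph1 rose (0.59 ± 0.13), and of 29 antioxidant genes Txn1 did (0.27 ± 0.06). DESeq2 called 4 of the chaperones and 3 of the antioxidant genes higher. Of 36 CDK inhibitors, senescence genes and p53 targets none rose and 2 fell, the chromatin proteins Hmga2 (38.5 and 35.0 CPM against 27.4 and 24.5 CPM, -0.50 ± 0.10) and Hmga1 (-0.29 ± 0.07). Cdkn1a, the p53 target that halts the cycle, was at 26.0 and 25.4 CPM in NT and 30.2 and 33.2 CPM in ES (0.30 ± 0.16, adjusted p = 0.359), and Cdkn2a had 0 counts in all 4 libraries. None of 27 p38, JNK and ERK kinases passed, with 3 at an unadjusted p under 0.05, 0 called by DESeq2 and 1 by limma-voom. Among 31 muscarinic, Gq and calcium signalling genes the endoplasmic reticulum calcium pump Atp2a3 rose, from 146 and 149 CPM to 208 and 199 CPM (0.47 ± 0.06, adjusted p = 0.00487).

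Metallothioneins, small proteins that bind zinc and copper and are induced by metals and by glucocorticoids, fell. Mt1 was at 54.1 and 52.8 CPM in NT and 31.8 and 31.7 CPM in ES (-0.75 ± 0.08, adjusted p = 0.00173), and Mt2 at 20.8 and 22.2 CPM in NT and 9.17 and 4.08 CPM in ES (-1.67 ± 0.26, adjusted p = 0.00948). Both genes separated the groups, as every gene that passed did, with a wider spread between the ES libraries for Mt2. They are close copies, so reads may be shared. In the same list of 16 genes the zinc importer Slc39a4 rose, from 38.9 and 38.1 CPM to 56.4 and 58.1 CPM (0.57 ± 0.08, adjusted p = 0.00691). Since Mt1 and Mt2 fell together, their RefSeq start-site windows in GRCm38.p6 are shown, Mt1 at chr8:94178839-94179118 and Mt2 at chr8:94172368-94172647, both on the plus strand. Capitals mark the core letters of the metal response element, TGCACNC or TGCGCNC on either strand.
Mt1: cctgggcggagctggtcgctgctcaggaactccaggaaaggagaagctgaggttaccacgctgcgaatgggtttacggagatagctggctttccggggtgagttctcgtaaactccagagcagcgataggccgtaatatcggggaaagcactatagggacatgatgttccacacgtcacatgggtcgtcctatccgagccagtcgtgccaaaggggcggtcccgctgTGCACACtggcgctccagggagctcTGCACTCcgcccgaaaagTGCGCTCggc
Mt2: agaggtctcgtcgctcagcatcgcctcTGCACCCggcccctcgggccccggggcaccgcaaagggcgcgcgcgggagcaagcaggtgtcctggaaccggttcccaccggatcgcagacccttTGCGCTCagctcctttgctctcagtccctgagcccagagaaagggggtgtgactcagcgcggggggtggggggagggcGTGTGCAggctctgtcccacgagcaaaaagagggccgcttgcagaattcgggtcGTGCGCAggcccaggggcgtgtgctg
The Mt1 window holds 3 such cores and the Mt2 window 4. At least 3 occur in 1.73% of the 32851 windows and at least 1 in 24.1%. The matches say nothing about whether the elements were in use.

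Iron and purine genes included several of the larger changes. Slc40a1, ferroportin, which exports iron, went from 7.01 and 6.55 CPM to 21.0 and 25.6 CPM (1.78 ± 0.20, adjusted p = 0.00193), and the storage protein Fth1 rose by 0.27 ± 0.06; 4 of 17 iron, copper and heme genes rose. Of 27 tested genes of nucleotide synthesis and salvage 2 rose, 3 fell and 22 did not pass. Xdh, which oxidises purines to uric acid, rose from 29.0 and 32.1 CPM to 95.7 and 73.2 CPM (1.47 ± 0.15, adjusted p = 0.00123), and the guanine deaminase Gda from 20.5 and 26.0 CPM to 47.6 and 50.9 CPM (1.09 ± 0.22, adjusted p = 0.0271). The synthesis enzymes Umps (64.3 and 64.7 CPM against 48.3 and 51.0 CPM, -0.38 ± 0.07), Paics (-0.28 ± 0.06) and Gart (-0.26 ± 0.06) fell. Of 28 glycolysis and hypoxia genes 5 rose, led in size by the prolyl hydroxylase subunit P4ha1 (0.91 ± 0.20) and the glucose transporter Slc2a1 (0.57 ± 0.10).

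Some genes of DNA replication fell and some of mitosis rose. Of 41 S phase genes 6 fell, none rose and 35 did not pass (median -0.15). The helicase subunit Mcm4 had 171 CPM in both NT libraries and 132 and 133 CPM in ES (-0.37 ± 0.06, adjusted p = 0.0106), the origin protein Orc1 fell from 20.7 and 18.1 CPM to 13.3 and 13.0 CPM (-0.56 ± 0.10) and the uracil glycosylase Ung by 0.53 (SE 0.09). Of 43 G2/M genes 11 rose and none fell, while 32 missed the threshold; 39 lay above 0 (median 0.21). Plk1, a mitotic kinase, went from 61.2 and 63.6 CPM to 84.8 and 81.9 CPM (0.42 ± 0.07, adjusted p = 0.0099), Nusap1, a spindle protein, from 63.7 CPM in both NT libraries to 84.5 and 85.0 CPM (0.41 ± 0.06, adjusted p = 0.00755) and Cdc20, an activator of the anaphase-promoting complex, by 0.34 ± 0.06. Mki67, which marks cycling cells in general, was at 647 and 657 CPM in NT and 570.3 and 731 CPM in ES, so the groups overlapped (-0.00 ± 0.10, adjusted p = 0.994). No S phase gene passed without any 1 of the WT libraries, and 1 G2/M gene passed without ES replicate 2 and 0 without each of the others.

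Of 32 tested ribosome biogenesis genes 12 fell, none rose and 20 did not pass; all 32 lay below 0, with a median of -0.28. The nucleolar methyltransferase Nop2 went from 98.6 and 98.5 CPM to 77.6 and 75.4 CPM (-0.37 ± 0.07, adjusted p = 0.0291), Polr1b, a subunit of RNA polymerase I, from 107 and 109 CPM to 81.6 and 87.4 CPM (-0.36 ± 0.07, adjusted p = 0.0214) and Wdr43 by -0.37 ± 0.07. Npm1, an abundant nucleolar chaperone, fell by 0.31 (SE 0.07). In the leave-outs 1 member passed without ES replicate 2, and 0 without any other WT library. Of the 85 ribosomal proteins themselves none passed, none had an unadjusted p under 0.05, none was called by DESeq2 or limma-voom, and fold changes lay between -0.15 and 0.18. Respiratory chain subunits encoded in the nucleus lay above 0 in 71 of 78 cases with a median of 0.12, and none passed, although 21 had an unadjusted p under 0.05 and DESeq2 called 4 (limma-voom 0). None of the 13 mitochondrially encoded proteins passed or had an unadjusted p under 0.05.

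**Figure D3:**
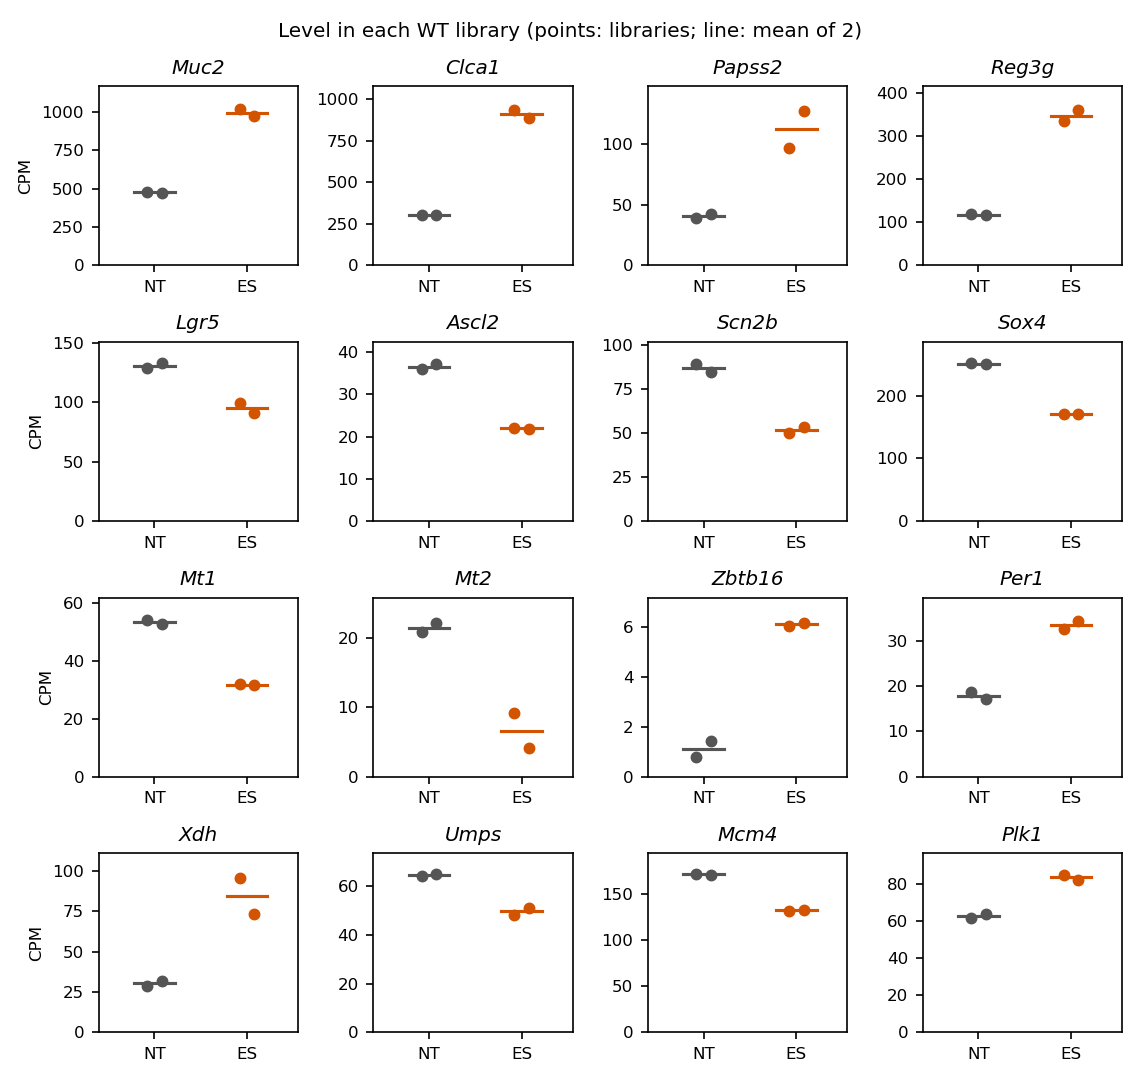
Level in CPM of 16 genes in each WT library, with points for libraries and a line at the mean of the 2 in each group; vertical axes start at 0 and differ between genes. In every gene shown the NT and ES libraries are apart, as in every gene that passed, with the widest spread inside a group in Papss2, Xdh and Mt2.

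Among the genes with the largest changes outside these lists, the tyrosine kinase Ptk6, found in differentiating gut epithelium, rose from 1.51 and 1.78 CPM to 5.46 and 6.66 CPM (1.88 ± 0.28, adjusted p = 0.0089). Fhl1, a LIM domain protein, went from 0.848 and 0.907 CPM to 2.89 and 4.83 CPM (2.11 ± 0.37) and Med12l, a Mediator subunit, from 0.346 and 0.202 CPM to 2.08 and 1.57 CPM (2.72 ± 0.45). Of the genes that fell, Sema7a, a membrane semaphorin, went from 106 and 109 CPM to 57.6 and 55.1 CPM (-0.94 ± 0.15, adjusted p = 0.0116), Dpysl5, which acts in semaphorin signalling, from 31.3 and 29.0 CPM to 14.3 and 15.9 CPM (-1.0 ± 0.11, adjusted p = 0.00193) and Slit2, a secreted guidance cue, from 14.3 and 13.0 CPM to 6.86 and 8.04 CPM (-0.88 ± 0.15). Rec8, a meiotic cohesin subunit, fell from 20.3 and 24.7 CPM to 12.3 and 8.64 CPM (-1.09 ± 0.15, adjusted p = 0.00634).

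Some calls belong to genes whose counts are divided between overlapping identifiers, for a reason that was not tested. The Raver1 identifier ENSMUSG00000111497 (chromosome 9, 21067514 to 21091997) went from 121 and 135 CPM to 15.1 and 17.6 CPM, while ENSMUSG00000010205, which carries the same symbol and overlaps it on the same strand, went from 78.1 and 58.2 CPM to 170.2 and 168 CPM. Their sum was 199.6 and 193 CPM in NT and 185 and 186 CPM in ES, a log2 ratio of -0.08. The same held for Nnt, the mitochondrial transhydrogenase, to which GENCODE gives 2 overlapping identifiers on chromosome 13. ENSMUSG00000116207 was at 43.0 and 110.6 CPM in NT and had 0 counts in ES, and ENSMUSG00000025453 went from 88.4 and 24.0 CPM to 120.4 and 124 CPM. The sum was 131 and 135 CPM in NT and 120.4 and 124 CPM in ES (log2 ratio -0.12). The KO libraries showed the same split of Nnt, with 73.9 and 19.9 CPM of ENSMUSG00000116207 in NT and 0 in ES, while the sum there was 82.4 and 72.1 CPM in NT and 132 CPM in both ES libraries. GENCODE gives 15 names to a pair of overlapping identifiers on 1 strand that were both tested, and 3 of these had at least 1 that passed (Fam220a, Nnt and the predicted gene Gm28040). Raver1 is not among them, since GENCODE names its first identifier differently from the deposited table. The sums of the others were not level. For Fam220a, ENSMUSG00000118332 went from 12.2 and 8.33 CPM to 3.45 and 0.861 CPM, and the sum was 14.3 and 13.0 CPM in NT and 9.46 and 9.35 CPM in ES (log2 ratio -0.54). In KO the Fam220a sum was 13.9 and 13.5 CPM in NT and 15.8 and 14.3 CPM in ES. The Gm28040 sum was 2.70 and 3.09 CPM in WT NT and 6.40 and 8.90 CPM in WT ES (log2 ratio 1.40). Nnt, Fam220a and Gm28040 were looked up after their values were seen.

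The KO libraries, from TAM-injected mice, show which of these changes also appeared there; TAM injection and loss of Chrm3 cannot be told apart. Chrm3 was at 9.24 and 7.71 CPM in KO NT and 8.13 and 6.04 CPM in KO ES, against 11.2 and 13.0 CPM in WT NT and 11.6 and 10.9 CPM in WT ES; a count over the whole gene also takes reads outside the floxed part, so it does not test the deletion. Of the 364 genes that rose in WT, 251 had a fold change of the same sign in KO, 33 passed in the same direction and 3 in the opposite one (Reg1, Alpi and the alkaline phosphatase Akp3), with 89 genes (0.513%) passing in KO in all, 72 higher (0.415%) and 17 lower (0.0979%). Of the 241 that fell, 176 had the same sign and 2 passed, the identifiers ENSMUSG00000116207 of Nnt and ENSMUSG00000118332 of Fam220a described above. Among all tested genes 54.5% had the same sign. The goblet list had a median of 0.60 in KO with 13 members higher, Paneth 0.52 with 9 higher, and interferon response 0.62 with 9 higher. Brush border genes had a median of -0.15 in KO with 4 lower and none higher, against 5 higher in WT, and the test of the difference passed for 3 of them (Alpi, Akp3 and Lct). In these 3 genes both KO ES libraries lay below both KO NT libraries, and KO NT replicate 2 was the higher of its group. The summed absorptive markers were 366 and 701 CPM in KO NT and 296 and 396 CPM in KO ES, so there the groups overlapped. The part of KO NT replicate 2 was not tested. Stem cell identity had a median of -0.07 in KO with none lower, ribosome biogenesis -0.03 and G2/M 0.00, each with none called. The difference between the ES effects (KO minus WT) passed for 19 genes (0.109%), 2 in the positive direction (0.0115%) and 17 in the negative (0.0979%), 16 of which had passed in WT. The other genes were Midn and the absorptive genes Lct and Apoa4; these and Akp3 were looked up after the test. Reg1 (32.8 and 33.0 CPM to 113 and 109.7 CPM in WT) went the other way in KO, from 40.3 and 60.9 CPM to 22.9 and 27.0 CPM. Slc40a1 was at 12.9 and 19.9 CPM in KO NT and 9.36 and 10.3 CPM in KO ES. Scn2b, which fell in WT, was at 99.4 and 84.9 CPM in KO NT and 93.4 and 91.8 CPM in KO ES. For Muc2 (0.77 ± 0.06 in KO), Reg3g (1.31 ± 0.21) and Mmp7 (0.83 ± 0.07) the difference did not pass, with adjusted p of 0.189, 0.817 and 0.672.

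**Figure D4:**
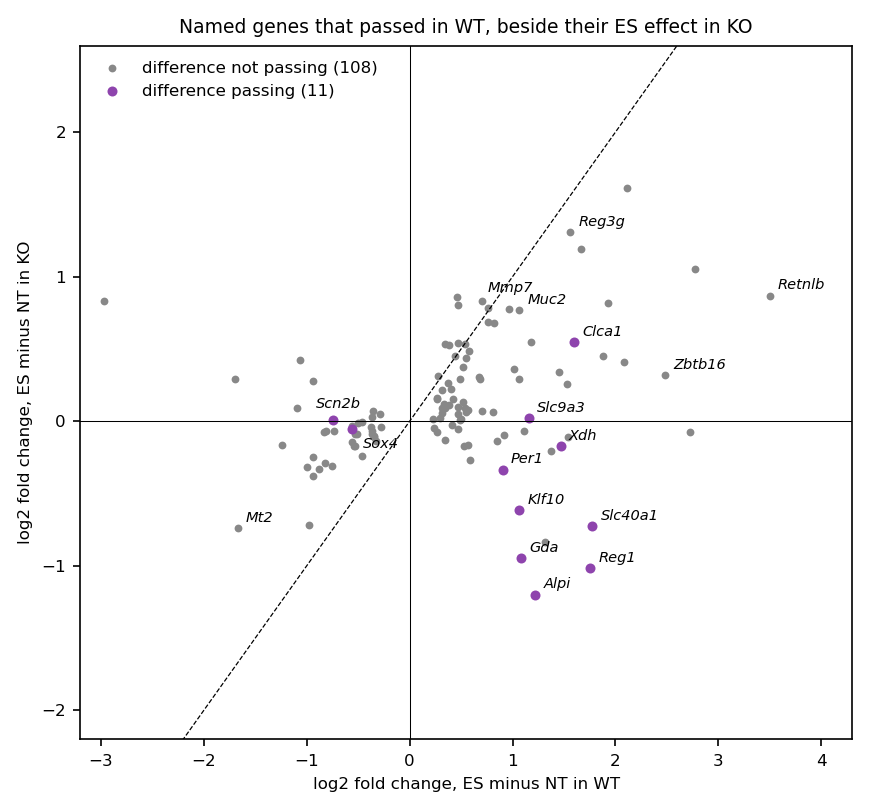
Log2 fold changes, ES minus NT, in WT (horizontal) and in KO (vertical) for 119 named genes that passed in WT, without Slc19a3, with a dashed line of equality. The 11 purple points passed the test of the difference. Reg1, Alpi, Gda, Slc40a1, Klf10, Per1 and Xdh lie above 0 in WT and below 0 in KO. Of these, only Reg1 and Alpi passed the test of ES against NT in KO.

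Ageing libraries share none of these samples and so give a separate readout of the same genes, in mice without the floxed gene. Of 16807 genes tested there, 1318 (7.84%) differed, 743 higher in old (4.42%) and 575 lower (3.42%). Of the 364 genes that rose after ES, 68 were higher in old (18.7% of them, and 9.15% of all genes higher in old) and 20 were lower. Of the 238 tested genes that fell after ES, 33 were lower in old (13.9%) and 6 higher. Zbtb16 was higher in old as well (3.93 ± 0.24, adjusted p = 7.32e-06), as were Zg16 (1.42 ± 0.16), Fcgbp (0.64 ± 0.07) and Gip (1.30 ± 0.24), and Ascl2 was lower (-0.62 ± 0.11, adjusted p = 0.00579). Several leading genes of the ES response moved the opposite way with age: Retnlb was lower in old (-3.73 ± 0.43, adjusted p = 0.000434), as were Clca1 (-1.17 ± 0.11, adjusted p = 0.000166), Gsdmc2 (-2.83 ± 0.15, adjusted p = 2.37e-06) and Ang4 (-1.78 ± 0.09, adjusted p = 2.35e-06). Differences between the ES and age effects were not tested. Some lists had more passing members with age than after ES, a difference that was not tested either: 18 of 21 T cell genes, 24 of 30 immediate early factors and 8 of 11 MHC class II genes were higher in old, and 11 of 18 tuft genes lower, against 0, 1, 2 and 0 after ES.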

How the data were processed

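Libraries of polyA RNA from sorted cells were made strand-specific with a TruSeq kit, per the labels. The authors deposited raw read counts per Ensembl gene, with no normalization, in 1 table for the 8 Chrm3 libraries and 1 for the 6 ageing libraries. The submitters' processing notes name mm10 and FastQC 0.11.2; for the aligner and counter the sources used here give no name. Columns named Ctrl were read as NT. Of 55335 identifiers 55154 are in GENCODE release M21 (GRCm38), the source of positions.

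Genes were kept by filterByExpr (minimum count 10, total 15), scaled by TMM and fitted in edgeR 4.0.16 (R 4.3.3) with 1 mean per group and a spread shared by all 8 libraries. P-values of the quasi-likelihood F test were adjusted by Benjamini-Hochberg over every tested gene, and a gene passed (rose or fell) below 0.05. CPM are TMM-scaled, and ± is a standard error of the log2 fold change derived from the F statistic. The tables were fitted separately. With 2 libraries a group no exact permutation test can go below p = 0.333.

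Named genes were the 15 largest rises and falls, up to 4 passing members per list by p, and 10 fixed genes. The largest rises and falls had an adjusted p under 0.05, at least 1 CPM on average and no overlap between groups. Their symbols, and those of the passing list members, were not predicted genes. Lists with no passing member gave their most abundant members. Further examples from the lists were chosen with their values in view. The members and the 47 lists were chosen with earlier results of these data known. The fit was tested on simulated counts. Alternatives were RLE size factors, no filter, a 1 CPM filter, the legacy quasi-likelihood test, limma-voom 3.58.1, DESeq2 1.42.0, a replicate block, other thresholds, only the WT libraries, and leaving out each library.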

Additional observations from a re-analysis of the deposited data

Results flagged for a closer look

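For 11 of the named genes the ES effect differed between KO and WT by a test of the difference itself (edgeR's quasi-likelihood test, adjusted p under 0.05 over all tested genes). The difference, KO minus WT on the log2 scale, was -2.77 for Reg1, -2.50 for the iron exporter Slc40a1, -2.42 for Alpi, -2.03 for Gda, -1.68 for Klf10, -1.64 for Xdh, -1.24 for Per1, -1.13 for Slc9a3 and -1.05 for Clca1. These 9 genes rose after ES in WT. It was 0.50 for Sox4 and 0.76 for Scn2b, which fell in WT. Several of the differences come with levels in KO NT that were already above those in WT NT: Klf10 was at 83.2 and 114 CPM in KO NT against 40.3 and 39.8 CPM in WT NT, and Xdh at 59.1 and 78.7 CPM against 29.0 and 32.1 CPM. KO NT replicate 2 was the higher library of its group in all 9 genes with a negative difference, and mitochondrial genes took 8.74% of its counts. The part of this library in these differences was not tested. Over all genes the difference passed for 53 genes without that library, for 363 without KO NT replicate 1, for 0 without WT NT replicate 1, for 2 without WT NT replicate 2, for 10 without WT ES replicate 2, and for 2 without KO ES replicate 1 or 2, against 19 with all libraries.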

How the results depend on the processing

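Counts for ES against NT in WT were within 1.5 times of 605 under RLE size factors (634), a 1 CPM filter (804), the legacy test (577) and limma-voom (528). They were 114 with no filter, 926 with DESeq2, 105 and 1223 at thresholds of 0.01 and 0.1, 1875 with only the 4 WT libraries, and 23 to 1209 when 1 library was left out. For the difference KO minus WT (19 genes) the counts were 0 with no filter, 11 with the legacy test, 8 with limma-voom, 178 with DESeq2, 2 and 49 at thresholds of 0.01 and 0.1, and 0 to 363 when 1 library was left out. For old against young (1318) they were 666 with no filter, 569 and 1991 at the thresholds, and 636 to 1485 when 1 library was left out (636 without young replicate 2, 638 without old replicate 1, 800 without young replicate 1). Of the 605 genes, DESeq2 called 575 in the same direction and limma-voom 514.

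With the replicate number as a block, 970 genes passed in ES against NT in WT, among them all 605, 104 in the difference and 2019 in old against young. The replicate difference correlated at 0.04 between WT NT and WT ES, at 0.37 between KO NT and KO ES, at 0.17 between WT ES and KO NT, and at -0.01 to 0.05 in the other pairs of groups. The labels do not say that a number marks a shared animal or batch, and the correlation was not above 0.1 in every pair, so the numbers were not taken to pair the samples; in the KO groups same-numbered libraries did deviate together.

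None of the 120 named genes that passed changed sign under any alternative. Their NT and ES libraries did not overlap, which largely fixed that outcome in advance. Among those that did not pass, some with values near 0 changed sign (Cd24a, Hadh, Hadha, Plcg2 and Rpl4 among others). The main limits are 2 libraries a group, calls that rest on each WT library, and close or overlapping gene copies.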

Other observations

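One WT ES library stood apart in a pair of genes that were picked after their values were seen. Lars2 was at 75.8 and 78.8 CPM in NT, 74.8 CPM in ES replicate 1 and 1571 CPM in ES replicate 2. Mir6236 was at 1.51 and 1.01 CPM in NT, 1.33 CPM in ES replicate 1 and 177 CPM in ES replicate 2. Both are on chromosome 9, at 123366927 to 123462666 (Lars2) and 110281287 to 110281409 (Mir6236), and neither passed the test (adjusted p = 0.106 and 0.0811). Elevated values of Lars2 were also found in KO NT replicate 2 (239 CPM) and KO ES replicate 2 (230.0 CPM). In most genes named above the WT ES libraries were close to each other, and without ES replicate 2 the goblet list still had 17 genes higher.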
